A study of Mus musculus with 12 samples.

Results

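The genes described here are 10 members of the fibroblast growth factor (FGF) pathway in mouse fibroblasts. They are the ligands Fgf2, Fgf7, Fgf10 and Fgf18, the receptors Fgfr1 and Fgfr2, and the feedback inhibitors Spry1, Spry2, Spry4 and Dusp6. Their symbols each occurred once among the 24346 genes of the expression table. All 10 also passed the filter on low values, a level of 0.5 FPKM or more in 3 or more of the 12 libraries.

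FGF ligands are secreted proteins that bind heparan sulfate and receptor tyrosine kinases on the cell surface. An activated receptor signals through adaptor proteins to the RAS and ERK kinase cascade, which turns on target genes such as the ETS factors of the Etv family. Some of these targets act back on the pathway: Sprouty proteins restrain the cascade upstream, and Dusp6 is a phosphatase that removes the activating phosphates from ERK. In lung development, Fgf10 from the mesenchyme acts on the epithelial form of Fgfr2 to drive branching, Fgf7 acts on the same receptor form, and Sonic hedgehog from the epithelium is known to hold mesenchymal Fgf10 in check.

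RNA was sequenced from 2 established fibroblast lines. The groups were NIH-3T3 with SHHN, NIH-3T3 control, MLg with SHHN and MLg control, with 3 libraries each. NIH-3T3 is labelled as a line from embryos of the NIH/Swiss strain, and MLg as a line from newborn lung of the ddY strain. SHHN is the recombinant amino-terminal signalling part of Sonic hedgehog, given at 1 µg/ml for 48 h; controls received vehicle for the same time. Cells of all 4 groups were at 85% confluence when treated and were held in DMEM with 0.5% fetal bovine serum. Each source is represented by 1 line, so line, strain, age and tissue of origin cannot be told apart. The labels do not say whether replicates were separate cultures, so each p-value measures the spread between these libraries, which may be technical.

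Levels are in FPKM, read fragments per length of transcript and per size of the library, so those of different genes can be set side by side. The libraries had 13401 to 14793 genes above 0, and their sequencing depth is unknown. Gli1, the transcription factor that Hedgehog signalling induces, averaged 147 ± 6.69 FPKM with SHHN and 0.131 ± 0.0478 FPKM in control NIH-3T3, and 120 ± 7.69 FPKM with SHHN and 0.583 ± 0.280 FPKM in control MLg (SD, n = 3 each). Of 13 fibroblast markers, none was at 0 throughout either line, but Thy1 stayed below 0.5 FPKM in every MLg library. The 13 summed to 13587 to 14881 FPKM with SHHN and 18624 to 19934 FPKM in control NIH-3T3. In MLg they summed to 11198 to 13093 FPKM with SHHN and 11616 to 13957 FPKM in control. By the test described below, 2 rose and 8 fell with SHHN in NIH-3T3, where 31.4% of all genes were called. In MLg 2 rose and 3 fell, where 22.8% were called. Epithelial markers summed to at most 0.711 FPKM and leukocyte markers to at most 1.92 FPKM in any library. Endothelial markers summed to 6.73 to 25.4 FPKM with SHHN and 5.75 to 7.94 FPKM in control NIH-3T3, and to 6.29 to 6.99 FPKM with SHHN and 0.233 to 0.447 FPKM in control MLg. With SHHN, most of that sum was Cdh5 and Tek in both lines. Pecam1 and Kdr stayed below 0.5 FPKM in every library and Emcn was listed at 0. The list also held Cldn5 and Vwf. Of its 7 markers, 4 stayed below 0.5 FPKM in every MLg library with SHHN and 7 in every control MLg library. In NIH-3T3 these numbers were 5 with SHHN and 6 in control. Muscle markers summed to 58.9 to 136 FPKM with SHHN and 127 to 154 FPKM in control NIH-3T3, and to 339 to 369 FPKM with SHHN and 368 to 485 FPKM in control MLg. The part of these markers in the results below was not tested.

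Replicate 1 of NIH-3T3 with SHHN stood apart in this pathway. Of 18 FGF and ERK target genes, 7 (Etv4, Egr1, Egr2, Egr3, Fos, Junb and Hmga2) lay more than 1 log2 unit above both other replicates there, and so did 1 member, Dusp6. Over all genes tested, 48 lay that far above and 69 that far below, together 0.945% of 12379. Replicate 2 of control NIH-3T3 had a larger such share, 1.62%, but with no member and no target gene in it. No library of the other 10 had a member beyond this distance. Results that rest on the first of these libraries are given with and without it.

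Fgf7 and Fgf10 are the members whose response to SHHN ran in opposite directions in the 2 lines, so the 250 bases before their transcription starts are shown, 5′ to 3′ on the strand of the gene. The sequences are RefSeq's for the assembly GRCm38.p6, the one that the name mm10 stands for. In capitals are matches on either strand to CCACCC, the core of the GLI motif, and to GGGCGG, the GC box bound by Sp factors.
Fgf7 chr2:126034408-126034657 (+): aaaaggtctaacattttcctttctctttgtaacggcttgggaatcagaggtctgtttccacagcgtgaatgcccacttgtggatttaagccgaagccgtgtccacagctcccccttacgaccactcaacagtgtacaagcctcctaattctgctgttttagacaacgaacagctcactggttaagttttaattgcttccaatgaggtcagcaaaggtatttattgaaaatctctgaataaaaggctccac
Fgf10 chr13:118714449-118714698 (+): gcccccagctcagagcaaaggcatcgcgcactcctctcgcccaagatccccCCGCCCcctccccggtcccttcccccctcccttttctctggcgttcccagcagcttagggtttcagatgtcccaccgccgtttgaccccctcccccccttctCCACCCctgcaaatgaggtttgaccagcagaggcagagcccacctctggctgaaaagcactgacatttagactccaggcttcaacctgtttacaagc
The Fgf7 window is AT-rich, with 43.6% G and C and 6 CG dinucleotides, and holds neither motif. The Fgf10 window has 61.2% G and C and 8 CG dinucleotides, with the GLI core starting at −97 and the GC box at −199 from the start. Over all 32851 RefSeq promoter windows of this length, the median G and C content was 52.4%, 28.1% held the core and 32.7% the GC box. The longer GLI motif GACCACCCA, searched on both strands, was in 0.225% of all windows and in none of the 8 members' windows read. Of the 8, those of Fgf10, Fgf2, Fgf18 and Spry1 held the GC box, and none held TATAAA (12.4% of all windows) or the ETS motif CCGGAAG (6.91%). The Fgf2 window, chr3:37348403-37348652, runs past the gene start given below, 37348477. Its GC box, at −49 from the end of the window, thus lies inside the gene as placed there. A match is a description of letters and not a bound site. Fgfr1 had no entry in the promoter table, and the Spry4 window is not shown.

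In NIH-3T3, SHHN was followed by lower Fgf7, Fgf10 and Spry2 and higher Fgfr2, Spry1, Spry4 and Dusp6, of which the call for Dusp6 was lost without any of 3 single libraries. In MLg it was followed by higher Fgf7, Fgf10 and Fgfr2 and lower Fgfr1 and Spry2. Each gene had 1 estimate of spread over the 4 groups, so p-values in 1 line also depended on the other line's libraries. A gene was called when its adjusted p from limma, corrected by Benjamini-Hochberg over all 12379 genes tested, was under 0.05. By this rule 4 members were higher and 3 lower in NIH-3T3, where 31.4% of all genes tested were called (16.6% higher, 14.8% lower). In MLg 3 members were higher and 2 lower, where 22.8% of all genes were called (12.8% higher, 10.0% lower). Without NIH-3T3 SHHN replicate 1, 6 members were called in NIH-3T3 and 5 in MLg. Of all 12379 genes, 1918 were then called higher and 1400 lower in NIH-3T3, and 1581 higher and 1292 lower in MLg. The median log2 fold change of the members was −0.01 in NIH-3T3 and −0.05 in MLg, beside medians over all genes of −0.01 and −0.00. Each log2 fold change is SHHN over control on log2(FPKM + 0.5), which understates the change of genes with low values, and its error is a standard error (SE). In bulk RNA, fewer cells that express a gene and less RNA per cell cannot be told apart.

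**Figure D1:**
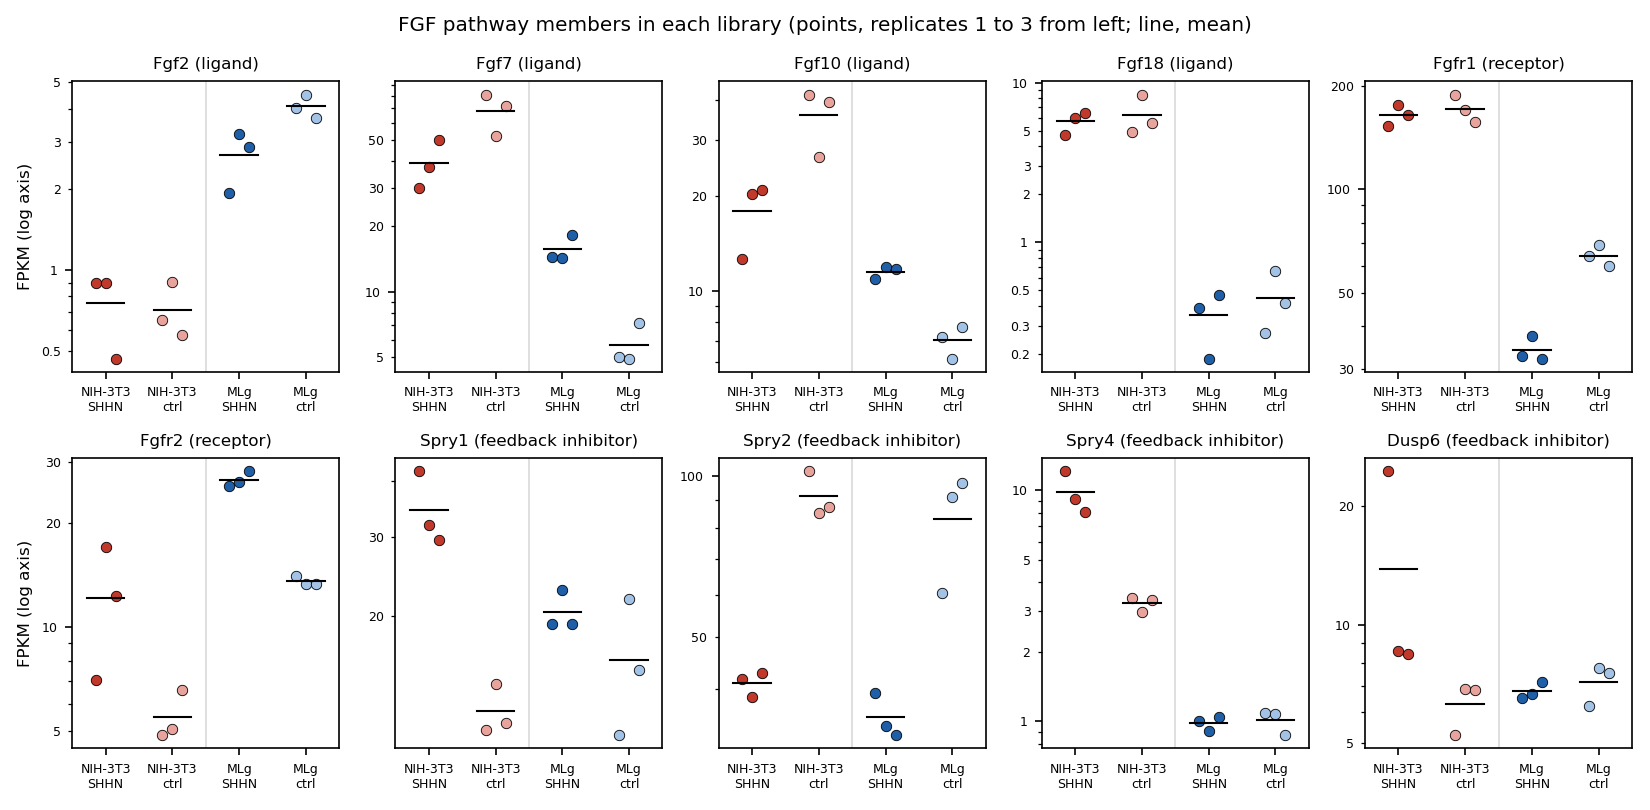
FPKM (log axis) of each member in each of the 12 libraries; points are replicates 1 to 3 from left and the line is the group mean. Fgf7 and Fgf10 lie lower with SHHN than in control in NIH-3T3 and higher with SHHN than in control in MLg, and Spry2 lies lower with SHHN in both lines.

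Fgf7, also called keratinocyte growth factor, is secreted by mesenchymal cells and acts on epithelium. It lies at chr2:126034658-126091185 (+). Its levels in NIH-3T3 were 30.0, 37.5 and 49.97 FPKM with SHHN, against 81.0, 52.0 and 71.7 FPKM in control. Its levels in MLg were 14.5, 14.3 and 18.3 FPKM with SHHN, against 4.98, 4.91 and 7.15 FPKM in control. Treated and control libraries did not overlap in either line. The log2 fold change was −0.80 (SE 0.21, adjusted p = 0.00980) in NIH-3T3 and 1.40 (SE 0.21, adjusted p = 2.06e-04) in MLg. Subtracting the MLg effect from the NIH-3T3 effect gave a difference of −2.20 (SE 0.29, adjusted p = 3.25e-04), so the ligand had a different effect on Fgf7 in the 2 lines. The call in NIH-3T3 was lost when the 6 NIH-3T3 libraries were fitted alone (adjusted p = 0.0562). Without NIH-3T3 SHHN replicate 1 the value in NIH-3T3 was −0.63, just under the threshold (adjusted p = 0.0497). The difference was then −2.03 (adjusted p = 7.77e-04).

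Fgf10, the ligand of lung mesenchyme described above, lies at chr13:118714699-118792573 (+). Its levels in NIH-3T3 were 12.6, 20.2 and 20.8 FPKM with SHHN, against 41.6, 26.5 and 39.4 FPKM in control. Its levels in MLg were 10.9, 11.9 and 11.7 FPKM with SHHN, against 7.18, 6.15 and 7.71 FPKM in control. Again neither line had treated and control libraries that overlapped. The log2 fold change was −0.99 (SE 0.20, adjusted p = 0.00164) in NIH-3T3 and 0.68 (SE 0.20, adjusted p = 0.0222) in MLg, with a difference of −1.67 (SE 0.28, adjusted p = 0.00141). The call in MLg was lost without MLg SHHN replicate 2 (adjusted p = 0.0671) or 3 (0.0699) and without MLg control replicate 1 (0.0515) or 2 (0.0913), with log2 fold changes of 0.60 to 0.70. The call of the difference was kept in each of these.

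Fgf2, a ligand of many mesenchymal cells that lacks a classical secretion signal, lies at chr3:37348477-37410106 (+). Its levels in NIH-3T3 were 0.897, 0.897 and 0.470 FPKM with SHHN, against 0.653, 0.906 and 0.574 FPKM in control, and these overlapped. Its levels in MLg were 1.94, 3.23 and 2.87 FPKM with SHHN, against 4.03, 4.50 and 3.69 FPKM in control, with every treated library below every control. The log2 fold change in MLg was −0.54 (SE 0.20, 95% interval −0.96 to −0.12), which missed the threshold (adjusted p = 0.0638). With the replicate number as a block, the adjusted p was 0.0490. The labels number the replicates but state no pairing. It was also under 0.05 without NIH-3T3 SHHN replicate 3 (0.0446), without NIH-3T3 control replicate 2 (0.0482) and without MLg SHHN replicate 2 (0.0489). In NIH-3T3 the log2 fold change was 0.04 (95% interval −0.38 to 0.46). Fgf2 overlaps Nudt6 on the opposite strand, which was at 2.08 to 4.87 FPKM. The sources do not say whether reads were assigned by strand, so the values of Fgf2 are uncertain.

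Fgf18, a ligand known for roles in bone, cartilage and lung, lies at chr11:33116970-33147400 (−). It had 4.73, 6.05 and 6.43 FPKM with SHHN, against 4.94, 8.41 and 5.59 FPKM in control NIH-3T3. It had 0.390, 0.187 and 0.470 FPKM with SHHN, against 0.269, 0.658 and 0.416 FPKM in control MLg. The groups overlapped in both lines, and neither log2 fold change was called: −0.10 in NIH-3T3 (95% interval −0.57 to 0.36) and −0.15 in MLg (95% interval −0.62 to 0.31).

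Summed over the 4 ligands, levels were 63.5 ± 14.7 FPKM with SHHN and 111 ± 20.9 FPKM in control NIH-3T3, and 30.3 ± 2.87 FPKM with SHHN and 17.2 ± 1.52 FPKM in control MLg (SD, n = 3 each). Fgf7 held the highest share in NIH-3T3, with 61.5% ± 3.24 with SHHN and 61.2% ± 1.99 in control. In MLg, Fgf7 held 51.7% ± 3.37 with SHHN and 32.7% ± 4.29 in control, while Fgf2 held 8.84% ± 1.96 with SHHN and 23.9% ± 4.19 in control. Fgf10 held 38.3% ± 2.75 with SHHN and 40.7% ± 2.86 in control MLg. With SHHN, Fgf7 thus replaced Fgf10 as the ligand with the highest share in MLg; these shares were not tested.

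The effect of SHHN on Fgfr1 differed between the lines, while Fgfr2 rose in both. Fgfr1, the main FGF receptor of mesenchymal cells, lies at chr8:25518759-25575718 (+). It was the most abundant member in NIH-3T3, with 153, 176 and 164 FPKM with SHHN, against 188, 170 and 156 FPKM in control. In MLg it had 32.8, 37.4 and 32.2 FPKM with SHHN, against 64.1, 68.7 and 59.7 FPKM in control. The groups overlapped in NIH-3T3 and were far apart in MLg. The log2 fold change was −0.06 in NIH-3T3 (95% interval −0.30 to 0.18, adjusted p = 0.724) and −0.90 in MLg (SE 0.11, adjusted p = 3.51e-05). The difference of 0.84 (SE 0.16, adjusted p = 0.00294) was called as well.

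Fgfr2, whose epithelial form is the receptor of Fgf7 and Fgf10, lies at chr7:130162451-130266808 (−). It had 7.04, 17.1 and 12.3 FPKM with SHHN, against 4.88, 5.08 and 6.59 FPKM in control NIH-3T3. It had 25.6, 26.4 and 28.3 FPKM with SHHN, against 14.1, 13.4 and 13.3 FPKM in control MLg. Every treated library was above every control in both lines, but the treated NIH-3T3 libraries were spread far more widely than those of MLg. Fgfr2 rose by 1.00 on the log2 scale in NIH-3T3 (SE 0.23, adjusted p = 0.00434) and by 0.95 in MLg (SE 0.23, adjusted p = 0.00768). The difference of these effects was 0.05, with a 95% interval of −0.65 to 0.74. Fitted with the 6 NIH-3T3 libraries alone, the NIH-3T3 call was lost (adjusted p = 0.0704). One value per gene does not separate the mesenchymal from the epithelial splice form of the receptor.

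As a share of the summed FPKM of Fgfr1 and Fgfr2, Fgfr2 made up 44.0% ± 2.71 with SHHN and 17.5% ± 1.07 in control MLg (SD, n = 3 each), a difference of 26.5 percentage points. In NIH-3T3 it made up 6.73% ± 2.22 with SHHN and 3.16% ± 0.791 in control, a difference of 3.58 points. Neither line had overlapping libraries, and the exact two-sided permutation test gave p = 0.1 in each, the smallest that 3 against 3 can give. The sum of both receptors was 60.9 ± 2.68 FPKM with SHHN and 77.8 ± 4.55 FPKM in control MLg, and 176 ± 16.7 FPKM with SHHN and 177 ± 15.3 FPKM in control NIH-3T3.

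**Figure D2:**
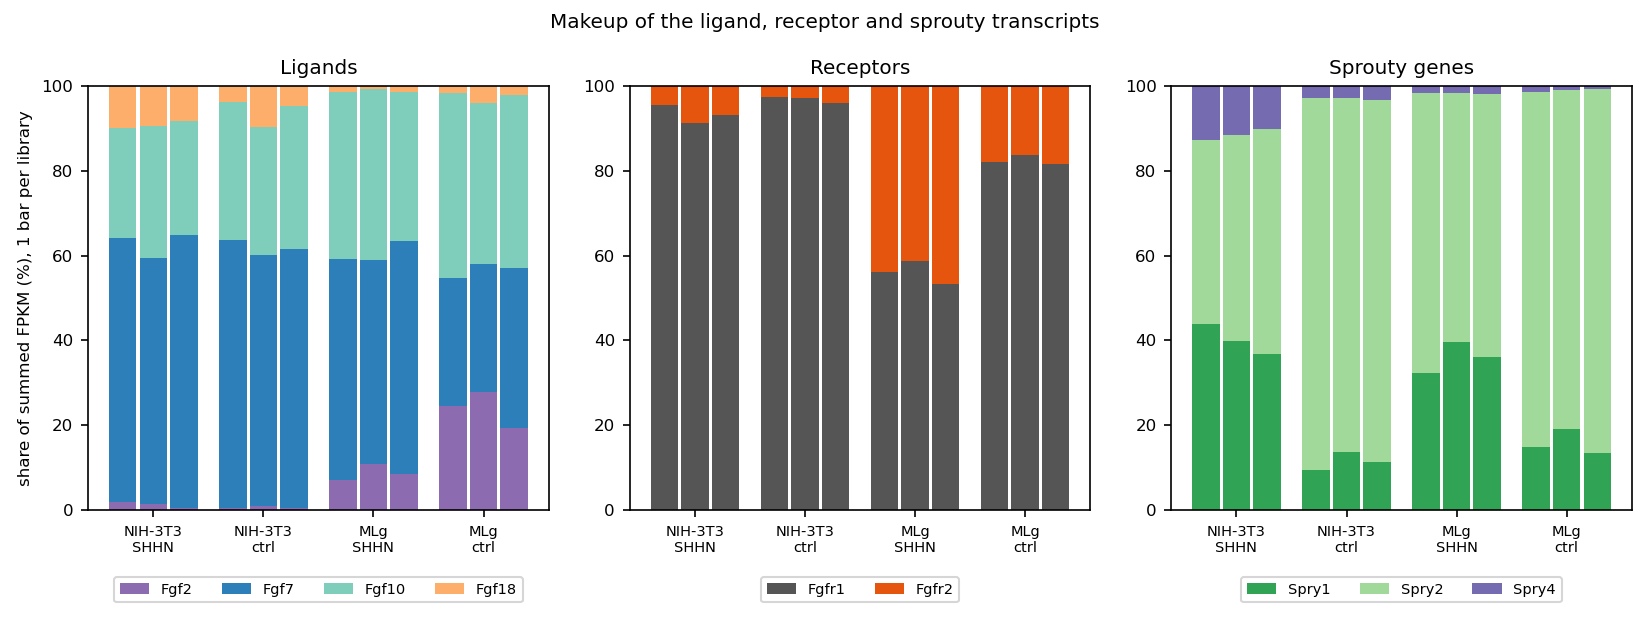
Shares of summed FPKM, in percent, of each ligand, receptor and Sprouty gene in the 4 groups; each bar is 1 library, with replicates 1 to 3 from left. The share of Fgfr2 among the receptors averages 44.0% with SHHN and 17.5% in control MLg, and Spry2 averages 48.4% with SHHN and 85.5% in control NIH-3T3.

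The feedback inhibitors did not move as 1 group. Spry2 fell in both lines, Spry1 and Spry4 rose in NIH-3T3, and the call for Dusp6 in NIH-3T3 was lost without any of 3 single libraries. Sprouty proteins are often read as reporters of FGF signalling, since ERK activity induces their genes.

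Spry2, at chr14:105891947-105896819 (−), was the most abundant Sprouty gene in control cells of both lines. It had 41.7, 38.7 and 42.8 FPKM with SHHN, against 102, 85.4 and 87.5 FPKM in control NIH-3T3. It had 39.3, 34.1 and 32.8 FPKM with SHHN, against 60.5, 91.4 and 96.9 FPKM in control MLg. All treated libraries lay below all controls in both lines, and treated levels of the 2 lines overlapped. Spry2 fell by 1.15 on the log2 scale in NIH-3T3 (SE 0.16, adjusted p = 7.89e-05) and fell by 1.19 in MLg (SE 0.16, adjusted p = 6.94e-05). The difference between the lines was 0.05, with a 95% interval of −0.43 to 0.53.

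Spry1, at chr3:37639947-37644599 (+), had 42.0, 31.8 and 29.5 FPKM with SHHN, against 11.1, 14.1 and 11.5 FPKM in control NIH-3T3. It had 19.2, 22.9 and 19.1 FPKM with SHHN, against 10.8, 21.7 and 15.1 FPKM in control MLg. The groups stood well apart in NIH-3T3 and overlapped in MLg. Spry1 rose by 1.44 on the log2 scale in NIH-3T3 (SE 0.21, adjusted p = 1.27e-04), while the value in MLg was 0.40 (95% interval −0.05 to 0.85, adjusted p = 0.207). The difference was 1.05 (SE 0.30, adjusted p = 0.0326), a call near the threshold. It was lost without NIH-3T3 SHHN replicate 1 (0.90, adjusted p = 0.0737) or 2 (0.0551), and likewise when control replicate 1 (0.0616) or 3 (0.0713) of that line was left out. Of the MLg libraries, it was lost without SHHN replicate 1 (adjusted p = 0.0757) or 3 (0.0801) and without control replicate 2 (0.0672). Without MLg control replicate 2, the highest MLg control, the value in MLg was 0.65 and was called (adjusted p = 0.0305), while without control replicate 1, the lowest, it was 0.16 (adjusted p = 0.650).

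Spry4, on chromosome 18, had the largest difference in effect between the lines of the 3 Sprouty genes. It had 12.1, 9.19 and 8.10 FPKM with SHHN, against 3.40, 2.96 and 3.36 FPKM in control NIH-3T3. In MLg it had 1.00, 0.905 and 1.04 FPKM with SHHN, against 1.08, 1.08 and 0.871 FPKM in control. Spry4 rose in NIH-3T3 by 1.44 (SE 0.15, adjusted p = 6.96e-06), and its log2 fold change in MLg was −0.03 (95% interval −0.35 to 0.30). The difference was 1.47 (SE 0.21, adjusted p = 5.92e-04), and no library left out in turn ended that call.

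Dusp6, the ERK phosphatase, lies at chr10:99263231-99267489 (+). It had 24.5, 8.56 and 8.44 FPKM with SHHN, against 5.24, 6.84 and 6.82 FPKM in control NIH-3T3. It had 6.52, 6.65 and 7.16 FPKM with SHHN, against 6.21, 7.76 and 7.52 FPKM in control MLg. All treated NIH-3T3 libraries were above the controls, but replicate 1 lay far above the other 2. The log2 fold change in NIH-3T3 was 0.91 (SE 0.30, adjusted p = 0.0342). Without NIH-3T3 SHHN replicate 1 it was 0.41 and missed the threshold (adjusted p = 0.0598), as it did without NIH-3T3 control replicate 1 (0.101) or 3 (0.0600). In MLg the value was −0.07 (95% interval −0.72 to 0.58). The difference between the lines was 0.98 (adjusted p = 0.154), and 0.48 (adjusted p = 0.146) without that library.

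As shares of their summed FPKM, Spry2 made up 48.4% ± 4.86 with SHHN and 85.5% ± 2.07 in control NIH-3T3, and 62.3% ± 3.59 with SHHN and 83.1% ± 2.91 in control MLg (SD, n = 3 each). Spry1 made up 40.1% ± 3.58 with SHHN and 11.5% ± 2.10 in control NIH-3T3, and 36.0% ± 3.64 with SHHN and 15.8% ± 2.90 in control MLg. Spry4 reached 11.4% ± 1.29 with SHHN and 3.03% ± 0.216 in control NIH-3T3, but 1.74% ± 0.203 with SHHN and 1.07% ± 0.379 in control MLg. The sum of the 3 genes was 85.3 ± 9.09 FPKM with SHHN and 107 ± 8.19 FPKM in control NIH-3T3, and 56.8 ± 3.40 FPKM with SHHN and 99.9 ± 23.8 FPKM in control MLg. In both lines the Spry2 share of every treated library lay below that of every control; these shares were not tested.

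Of the 10 differences of the SHHN effect between the lines, 3 were called higher in NIH-3T3 (Fgfr1, Spry1 and Spry4) and 2 lower (Fgf7 and Fgf10), where 13.4% of all genes tested were called (7.48% higher, 5.95% lower). For Fgf2 the difference was 0.58 (95% interval −0.01 to 1.18, adjusted p = 0.190) and for Fgf18 0.05 (95% interval −0.61 to 0.71). For Fgfr2 and Spry2 the intervals above span 0, which does not show that the lines respond alike. The median of the 10 differences was 0.32, beside −0.02 over all genes.

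**Figure D3:**
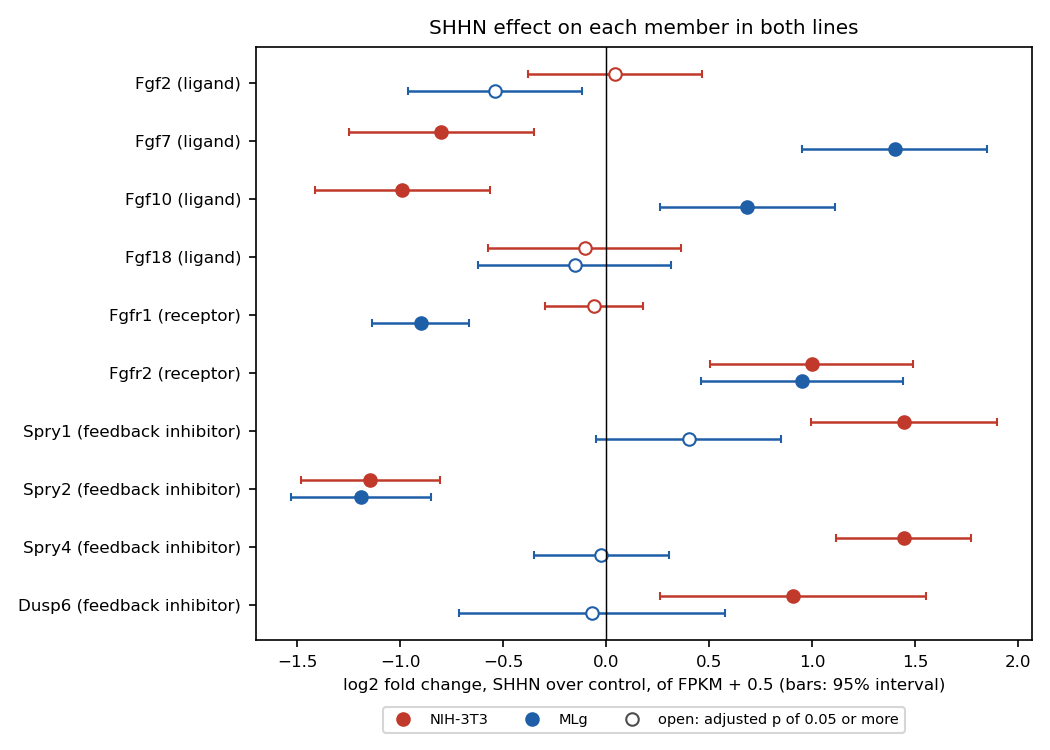
Log2 fold change of FPKM + 0.5, SHHN over control, of each member in NIH-3T3 and in MLg; bars are 95% intervals and filled points have an adjusted p under 0.05. Fgf7 and Fgf10 lie left of 0 in NIH-3T3 and right of 0 in MLg, while the points for Spry2 and for Fgfr2 nearly coincide.

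The lines also differed in these genes in control cultures. Without ligand, 5 members were higher in NIH-3T3 than in MLg and 2 lower, where 50.1% of all genes tested were called (24.4% higher, 25.7% lower). The 5 include Fgf18, whose difference is only described. Fgf7 was 11.1-fold higher in NIH-3T3 (log2 difference 3.47, SE 0.21, adjusted p = 9.55e-09) and Fgf18 7.13-fold higher (2.83, SE 0.22). Fgf10 was 4.76-fold (2.25, SE 0.20), Fgfr1 2.66-fold (1.41, SE 0.11) and Spry4 2.48-fold (1.31, SE 0.15) higher. Fgf18 passed the filter through the 6 NIH-3T3 libraries and 1 MLg library, so its differences between the lines, with and without SHHN, are descriptions. Fgf2 (−1.92, SE 0.20) and Fgfr2 (−1.24, SE 0.23) were lower in NIH-3T3. Spry1 (−0.32, 95% interval −0.77 to 0.13), Spry2 (0.17, −0.17 to 0.51) and Dusp6 (−0.18, −0.82 to 0.47) were not called, although Spry1 was called lower without MLg control replicate 1 (−0.56, adjusted p = 0.0306). Apart from Fgf18, NIH-3T3 thus had more Fgf7, Fgf10, Fgfr1 and Spry4, and MLg more Fgf2 and Fgfr2.

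Under SHHN, 7 members were higher in NIH-3T3 than in MLg and 2 lower, where 46.8% of all genes tested were called (22.1% higher, 24.8% lower). The 7 again include Fgf18, whose difference is only described. Fgf7 was 2.41-fold higher in NIH-3T3 (log2 difference 1.27, SE 0.21), which is less than without ligand by the tested difference of −2.20 above. Fgf10 was 1.49-fold higher (0.58, SE 0.20, adjusted p = 0.0278). That call was lost without NIH-3T3 SHHN replicate 2 (adjusted p = 0.110) or 3 (0.112) or without MLg SHHN replicate 1 (0.0787), 2 (0.0549) or 3 (0.0613). Fgfr1 was 4.76-fold (2.25, SE 0.11) and Spry4 6.86-fold (2.78, SE 0.15) higher in NIH-3T3, and Fgf18 7.37-fold (2.88, SE 0.22). Fgf2 (−1.34, SE 0.20) and Fgfr2 (−1.19, SE 0.23) were lower.

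For the other inhibitors under SHHN, Spry1 was higher in NIH-3T3 than in MLg by 0.73 (SE 0.21, adjusted p = 0.0111), which was lost without NIH-3T3 SHHN replicate 1 (0.58, adjusted p = 0.0550). Dusp6 was higher by 0.80 (SE 0.30, adjusted p = 0.0424), a call lost without any of 8 libraries, with 0.31 (adjusted p = 0.119) without NIH-3T3 SHHN replicate 1. The others were NIH-3T3 control replicate 3 and the 6 MLg libraries, with adjusted p-values of 0.0510 to 0.0980. Spry2 was not called (0.21, 95% interval −0.12 to 0.55). These comparisons share libraries with the SHHN comparisons above.

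Ranked by mean FPKM, neighbouring groups of Fgf7 and of Fgf10 were all separate, in the order NIH-3T3 control, NIH-3T3 with SHHN, MLg with SHHN and MLg control. Libraries with and without SHHN overlapped for Fgf2, Fgf18 and Fgfr1 in NIH-3T3, and for Fgf18, Spry1, Spry4 and Dusp6 in MLg. The share of all genes tested whose libraries overlapped is not given, so overlap of the members is only described. For Fgfr2, treated NIH-3T3 and control MLg overlapped, below treated MLg. For Spry2 the lines overlapped within each treatment, and for Spry1 and Dusp6 they overlapped in control.

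Of 14 other secreted ligands, 8 were above 0 in some library and 1, Fgf1, passed the filter. Fgf1, a ligand that can bind all FGF receptors, had 1.46, 1.72 and 1.64 FPKM with SHHN, against 0.0536, 0 and 0.0233 FPKM in control NIH-3T3. In MLg it had 0.0401, 0.0524 and 0.0325 FPKM with SHHN, against 0, 0.0179 and 0.0352 FPKM in control. Fgf1 passed the filter only through the 3 NIH-3T3 libraries with SHHN, so these levels are a description and no test of it is read. Of the intracellular homologous factors, Fgf11 and Fgf14 passed the filter and neither was called. Fgfrl1, a receptor without a kinase domain, averaged 31.9 ± 3.57 FPKM with SHHN and 26.7 ± 5.94 FPKM in control NIH-3T3, and 14.8 ± 1.08 FPKM with SHHN and 19.8 ± 2.56 FPKM in control MLg. Its log2 fold change in MLg was −0.41 (adjusted p = 0.0788, and 0.0243 with the replicate block), and in NIH-3T3 0.27 (adjusted p = 0.216).

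Heparan sulfate proteoglycans hold FGF ligands at the cell surface. Of 22 genes tested of a list of these proteoglycans, the enzymes of their synthesis and FGF binding proteins, 7 rose and 4 fell in NIH-3T3, and 6 rose and 1 fell in MLg, with medians of 0.17 in both lines beside −0.01 and −0.00 over all genes. The share of all genes tested that was called was 31.4% in NIH-3T3 and 22.8% in MLg. The glypican Gpc1 rose by 2.14 (SE 0.18) in NIH-3T3 and by 1.57 (SE 0.18) in MLg, and Extl3, an enzyme of heparan sulfate synthesis, rose by 0.91 and by 0.79. Another glypican, Gpc6, fell in NIH-3T3 to 8.01 ± 3.45 FPKM with SHHN, against 42.0 ± 11.1 FPKM in control (−2.38, SE 0.28, adjusted p = 1.73e-05). Its value in MLg was 0.59 (adjusted p = 0.152), and 0.0442 without NIH-3T3 SHHN replicate 1. The syndecan Sdc3 fell in NIH-3T3 (−0.71, SE 0.10) and rose in MLg (0.35, SE 0.10, adjusted p = 0.0250, but 0.0510 with the replicate block). For 4 genes of this list the effect was lower in NIH-3T3 than in MLg, Gpc6 (−2.97) and Sdc3 (−1.06) among them. It was higher for none, where 13.4% of all genes tested were called (7.48% higher, 5.95% lower).

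Among 13 receptor adaptors, Gab1 and Gab2, which link receptors to the PI3 kinase and SHP2, rose in both lines and no other was called. So 2 of 13 were called in each line, beside 31.4% of all genes tested in NIH-3T3 and 22.8% in MLg. Gab1 rose by 1.49 in NIH-3T3 and by 1.26 in MLg, and Gab2 by 1.54 and by 1.61. The median of the list was 0.05 in NIH-3T3 and 0.02 in MLg. Frs3 and Shc1, other adaptors, had values of 0.05 and 0.06 in NIH-3T3 and −0.38 and −0.27 in MLg, none of them called.

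Of 17 other feedback inhibitors tested, 6 rose and 2 fell in NIH-3T3 (median 0.24), and 3 rose and 4 fell in MLg (median −0.21). Over all genes tested, 31.4% were called in NIH-3T3 (median −0.01) and 22.8% in MLg (median −0.00). Without NIH-3T3 SHHN replicate 1, the counts were 4 and 2 in NIH-3T3 and 3 and 5 in MLg. Of all 12379 genes, 1918 were then called higher and 1400 lower in NIH-3T3, and 1581 higher and 1292 lower in MLg. Lrig3, a transmembrane protein related to the receptor inhibitor Lrig1, rose by 1.61 in NIH-3T3 and by 1.89 in MLg. Dusp10, a phosphatase of stress-activated kinases, fell by 1.52 in NIH-3T3 and fell by 1.42 in MLg. Dusp1, an early phosphatase of several MAP kinases, had 17.7 ± 2.54 FPKM with SHHN and 65.7 ± 10.1 FPKM in control MLg (−1.86, SE 0.15, adjusted p = 7.90e-07). In NIH-3T3 its value was −0.33 (adjusted p = 0.0995), and the difference of 1.53 (SE 0.21) was called. Flrt2, a transmembrane partner of FGF receptors, rose in NIH-3T3 by 1.39 (SE 0.20), with 0.53 in MLg (adjusted p = 0.0744, and 0.0404 with the replicate block).

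The Spred genes, relatives of Sprouty that also restrain RAS signalling, were named after their values were seen. Spred1 rose by 1.00 (SE 0.25), Spred2 by 1.01 (SE 0.18) and Spred3 by 0.65 (SE 0.18) in NIH-3T3. In MLg the values were 0.17, −0.29 and −0.29, none of them called. The difference was called for Spred2 (1.29, adjusted p = 0.00376) and Spred3 (0.94, adjusted p = 0.0247) and not for Spred1 (0.82, adjusted p = 0.154). Without NIH-3T3 SHHN replicate 1, the rise of Spred3 missed the threshold (0.49, adjusted p = 0.0580).

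Of 18 transcriptional targets of FGF and ERK signalling, 10 rose and 3 fell in NIH-3T3 (median 0.64), and 2 rose and 2 fell in MLg (median 0.15). Those that fell include Fosl1 in both lines, here and in the counts below. Fosl1 passed the filter only through the control libraries, so its part in these counts is no test. Over all genes tested, 31.4% were called in NIH-3T3 (median −0.01) and 22.8% in MLg (median −0.00). The effect was higher in NIH-3T3 than in MLg for 4 targets and lower for none, where 13.4% of all genes tested were called. Without NIH-3T3 SHHN replicate 1, 7 rose and 4 fell in NIH-3T3, 5 rose and 3 fell in MLg, and the effect was higher in NIH-3T3 for 5 and lower for 2. Of all 12379 genes, 1918 were then called higher and 1400 lower in NIH-3T3. In MLg 1581 were called higher and 1292 lower, and for the difference 904 and 651. Etv5, an ETS factor, averaged 22.6 ± 7.72 FPKM with SHHN and 6.87 ± 1.60 FPKM in control NIH-3T3, and 5.16 ± 0.604 FPKM with SHHN and 3.71 ± 0.789 FPKM in control MLg. Its log2 fold change was 1.62 (SE 0.23, adjusted p = 1.00e-04) in NIH-3T3 and 0.44 (adjusted p = 0.205) in MLg, with a called difference of 1.18. Etv1 rose in NIH-3T3 by 1.53 (SE 0.21) with −0.34 in MLg, a difference of 1.87 (adjusted p = 0.00104). Ccnd1, which encodes cyclin D1, rose in NIH-3T3 by 1.59 (SE 0.15) with 0.26 in MLg, a difference of 1.33 (adjusted p = 0.00119). Without NIH-3T3 SHHN replicate 1 these 3 rises in NIH-3T3 were still called, at 1.36 for Etv5, 1.34 for Etv1 and 1.80 for Ccnd1.

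The AP-1 subunit Fosl1, counted above among those that fell in both lines, had 0.134 ± 0.147 FPKM with SHHN, against 2.43 ± 0.552 FPKM in control NIH-3T3. It had 0.380 ± 0.0707 FPKM with SHHN, against 2.65 ± 1.43 FPKM in control MLg. It passed the filter only through the control libraries, so these levels are a description. Etv4 and Egr1 were named after their values were seen. Etv4 had 10.8, 3.49 and 3.501 FPKM with SHHN, against 1.68, 1.70 and 1.24 FPKM in control NIH-3T3. Its log2 fold change was 1.48 with all libraries and 0.98 (adjusted p = 4.53e-04) without NIH-3T3 SHHN replicate 1. Egr1 had 54.9, 19.4 and 18.6 FPKM with SHHN, against 13.3, 11.6 and 14.96 FPKM in control NIH-3T3. Its log2 fold change was 1.01 with all libraries and 0.51 (adjusted p = 0.00852) without that library. In NIH-3T3, every treated library was above every control for both, but 1 library set much of the size. In MLg, Egr1 had 47.0, 44.0 and 41.5 FPKM with SHHN, against 31.2, 29.9 and 30.2 FPKM in control. Its value in MLg was 0.53 (adjusted p = 0.243, and 0.00367 without NIH-3T3 SHHN replicate 1). The value 0.53 was the same in both fits, and its p-value rests on a spread shared with the NIH-3T3 libraries. The difference of the Egr1 effect was 0.48 (adjusted p = 0.481), and −0.02 (0.960) without that library. For Etv4 the value in MLg was 0.32 (adjusted p = 0.525).

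**Figure D4:**
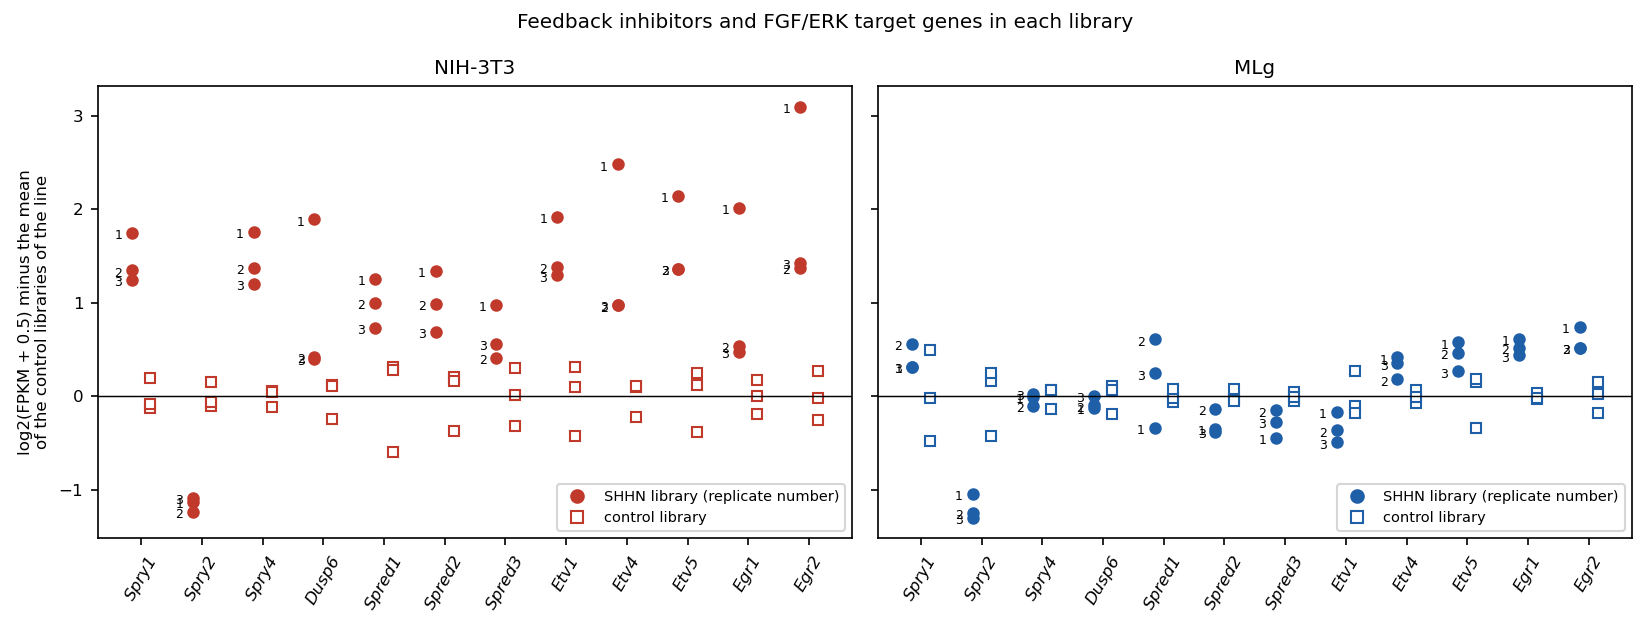
Feedback and target genes in each library of NIH-3T3 (left) and MLg (right), as log2(FPKM + 0.5) minus the mean of the control libraries of the same line; filled points are SHHN libraries with their replicate number and open squares are controls. For Dusp6, Etv4, Egr1 and Egr2, replicate 1 of NIH-3T3 with SHHN lies far above replicates 2 and 3, and Spry2 lies below its controls in both lines.

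Genes of cell division moved with the treatment: all 20 genes of a G2/M list rose in both lines. Of all genes tested, 16.6% were called higher in NIH-3T3 and 12.8% in MLg. The medians of the G2/M list were 2.88 in NIH-3T3 and 2.04 in MLg. Examples are Aurka (3.07, SE 0.15, in NIH-3T3 and 1.81, SE 0.15, in MLg) and Tpx2 (2.73, SE 0.13, in NIH-3T3 and 2.03, SE 0.13, in MLg). The effect was higher in NIH-3T3 than in MLg for 11 of the 20 and lower for 1, where 13.4% of all genes tested were called. The median difference was 0.83 beside −0.02 over all genes, and the difference for Aurka was 1.26 (adjusted p = 0.00148). The part of these genes in the changes of the FGF members, and in their differences between the lines, was not tested.

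The genes whose levels ran most like each member were found by Pearson's r on the log2 scale over the 12 libraries, among 11328 tested genes with a mean of at least 1 FPKM. These libraries form 4 groups, so r mostly follows the group means, and it is given as a description. Fgf7 ran most like Cln8 (r = 0.989), Rab23 and Fstl1, and Fgf10 most like Aoc3 (0.983), Dnajb4 and A830010M20Rik. Aoc3, an amine oxidase, fell in NIH-3T3 (−1.77, SE 0.24) and rose in MLg (1.06, SE 0.24), with a difference of −2.83 (adjusted p = 1.33e-04). Fgf2 ran most like Hoxb6 (0.983), Jph2 and Stac2, and Fgf18 most like Gas6 (0.993), Akr1a1 and Ccdc8. Fgfr1 ran most like Iglon5 (0.989), Rundc3a and Cdc42ep2, and Fgfr2 most like Bcor (0.968), Fam101b and Dhrs4. Among the inhibitors, Spry1 ran most like Prx (0.940), Klf16 and Slc12a4, Spry2 like P4ha3 (0.964), F730043M19Rik and Anxa1, and Spry4 like Mycn (0.990), Cdca7l and Tiam1. Dusp6 ran most like Etv4 (0.896), Nkain1 and Rmnd5b, where both Dusp6 and Etv4 were highest in NIH-3T3 SHHN replicate 1. Between members, Fgf7 and Fgf10 had an r of 0.963 and Spry1 and Dusp6 one of 0.755, while Spry1 and Spry2 had −0.647.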

How the data were processed

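The authors deposited FPKM, 1 per gene in each library. The submitters' processing notes name the tools bcl2fastq, TopHat2 2.0.12 and Cufflinks 2.2.1 with the genome build mm10; the annotation, strand setting and any scaling between libraries are not given in the sources used here. FPKM totals per library were 470218 to 659862, which is no measure of depth, so no counting interval is given. Whole reads could not be recovered: among low genes, the commonest ratio between libraries held at most 1.73% of genes. No 2 libraries were duplicates of each other, and 1 empty entry was dropped. Each column was assigned to its sample through the line, treatment and number in its name.

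Fits used limma 3.58.1 (R 4.3.3) on log2(FPKM + 0.5). All 12 libraries entered 1 fit of 4 group means with a variance trend, over the 12379 genes that reached 0.5 FPKM in 3 or more libraries. Tests were two-sided, with Benjamini-Hochberg adjustment over all genes tested and a threshold of 0.05. Errors of FPKM and of shares are standard deviations over 3 libraries. The script was tested on simulated data.

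Same-numbered MLg libraries deviated together from their group means (correlations across genes 0.132, 0.157 and 0.241), so MLg results were also fitted with a replicate block. Same-numbered NIH-3T3 libraries did not (−0.000703, −0.101 and 0.0269).

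Beside the 10 members, the text names the 3 genes most correlated with each, up to 4 genes of each list with the smallest p in either SHHN comparison, other FGF genes that passed the filter, and a few genes marked as chosen after their values were seen. The members and lists were chosen with earlier results of these data known. Gene positions and promoters are RefSeq's for GRCm38.p6, with entries used for 8 members. Alternative settings were a pseudocount of 0.1 or 1, quantile and median-ratio scaling, no filter or one at 1 FPKM, fits of only the groups compared, robust variances, the replicate block and each library left out in turn. Counts in the lists without NIH-3T3 SHHN replicate 1 and with the block were added after the data were seen.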

Additional observations from a re-analysis of the deposited data

Results flagged for a closer look

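The effect of SHHN differed between NIH-3T3 and MLg, by a test of the difference itself, for 5 members and for 6 genes of the related lists that the naming rule picked. The values are log2 differences, NIH-3T3 effect minus MLg effect. They were −2.20 for Fgf7 and −1.67 for Fgf10, for which the 2 effects had opposite signs and each was called. They were 0.84 for Fgfr1, which fell in MLg, 1.47 for Spry4 and 1.05 for Spry1, which rose in NIH-3T3. The call for Spry1 was lost without any of 7 libraries. Outside the members they were −2.97 for Gpc6, −1.06 for Sdc3, 1.53 for Dusp1, 1.33 for Ccnd1, 1.87 for Etv1 and 1.18 for Etv5. With the replicate number as a block, each of these 6 had an adjusted p under 0.05, as it had without NIH-3T3 SHHN replicate 1, where Etv5 was nearest to the threshold (0.0491). The value for Fgf1 was 1.94, but Fgf1 passed the filter only through the NIH-3T3 libraries with SHHN, so no test of it is read. Explanations for these differences were not tested.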

How the results depend on the processing

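Over 1040 combinations of a member, a comparison and an alternative, 994 kept their side of the threshold, 38 lost a call and 8 gained one. No called effect reversed. Some effects called in neither fit changed sign, such as Fgf2 in NIH-3T3, at 0.04 in the main fit and −0.03 with quantile scaling. Fitting only the 6 NIH-3T3 libraries left 4 called members of 7 there, losing Fgf7, Fgfr2 and Dusp6. Over all genes, 1552 were then called higher and 1182 lower in NIH-3T3, against 2059 and 1826 in the main fit. Fitting only the 6 MLg libraries gave 1740 higher and 1413 lower in MLg, against 1580 and 1238. The cause of these shifts was not tested. With each library left out in turn, called members numbered 6 to 7 in NIH-3T3, 4 to 6 in MLg, 4 to 5 for the difference, 7 to 8 between lines without ligand and 7 to 9 under SHHN. All genes called numbered 3049 to 4275, 2008 to 3262, 1093 to 2345, 5406 to 6357 and 4822 to 6320 in the same order. Member counts between the lines include Fgf18, whose differences there are descriptions. The count of 1093, against 1662, was without MLg SHHN replicate 3. The difference in the Fgfr2 share was 2.53 to 4.74 points in NIH-3T3 and 25.1 to 27.8 points in MLg. With the replicate block, 6 members were called in each line: Dusp6 lost its call in NIH-3T3 (adjusted p = 0.0560) and Fgf2 gained one in MLg (0.0490). Of all 12379 genes, the block called 2123 higher and 1869 lower in NIH-3T3, and 1598 higher and 1232 lower in MLg. Between the lines, the block paired NIH-3T3 with MLg libraries by replicate number alone, and that pairing was not checked. Under SHHN it left 8 members called between the lines, without Dusp6 (0.0537), where 2947 of all 12379 genes were called higher and 3367 lower. The block changed no other call of a member. Dusp6 in NIH-3T3 also missed the threshold with no filter (0.0710) and with quantile scaling (0.0541), and the difference of Spry1 with no filter (0.0622); the filter changes how many genes are tested, and for the scaling the cause was not tested. Of the 17 other feedback inhibitors tested, the difference was called higher for 3 and lower for none without the block, where 13.4% of all genes were called. With the block it was called higher for 6 and lower for 1, where 925 of all 12379 genes were called higher and 767 lower. Depth is unknown, so what it limits cannot be given.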
